A study of Mus musculus with 16 samples.

Results

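The transcripts of 9 enzymes that break down tyrosine and tryptophan were followed in primary mouse hepatocytes with and without a deletion of Smpd3, kept in palmitic acid or in vehicle. The 9 were taken by gene symbol: Tat, Hpd, Hgd, Gstz1 and Fah make up the tyrosine route, and Tdo2, Afmid, Kmo and Haao lie on the tryptophan (kynurenine) route. They are 9 of 55416 genes in the deposited table, and all 9 were among the 11858 genes with enough signal to be tested. The samples were HKO hepatocytes (Alb-cre+) in 0.4 mM palmitic acid, HKO hepatocytes in vehicle, FLOX hepatocytes (Alb-cre-) in 0.4 mM palmitic acid and FLOX hepatocytes in vehicle, each for 24 h, with 4 samples per group and 16 in all. In HKO cells Cre recombinase, driven by the albumin promoter, deletes Smpd3, which encodes a neutral sphingomyelinase. FLOX cells lack Cre. Palmitic acid, a saturated fatty acid, was given to model steatohepatitis in culture. The labels do not say whether samples of a group came from separate animals, and a p-value here reflects the spread among the samples alone, part of which may be technical. In each genotype the titles use the same replicate numbers under both treatments, without saying whether a number marks a single animal. The main fit used no pairing, and a fit with the replicate number as a block is among the alternatives.

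The liver is the main site of breakdown of both amino acids. Tyrosine loses its amino group, its ring is rearranged and then opened, and the last step yields fumarate and acetoacetate. The ring of tryptophan is opened at the first step to give formylkynurenine, and the kynurenine route then leads either to full oxidation or to the synthesis of NAD. The entry enzymes Tat and Tdo2 are textbook examples of liver genes induced by glucocorticoids.

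Values are in TPM, a share of transcripts corrected for transcript length, for which the depth of each sample is unknown. Differences are log2 differences of TPM + 1 with their standard error (SE), and a gene was called where its adjusted p was under 0.05 in limma's moderated test, with Benjamini-Hochberg adjustment over all genes tested. Smpd3 read 7.88, 9.15, 7.82 and 6.44 TPM in HKO cells with palmitic acid, against 42.5, 47.1, 46.7 and 47.8 TPM in FLOX cells with palmitic acid. With vehicle it read 4.25, 5.89, 5.54 and 5.46 TPM in HKO cells, against 37.1, 29.7, 27.8 and 33.2 TPM in FLOX cells, so every library matched the genotype of its label. Alb, the defining transcript of hepatocytes, stood between 17752 and 24692 TPM in the 16 samples. The summed level of 8 hepatocyte markers was 45472 to 46910 TPM in HKO cells with palmitic acid, 59010 to 60154 TPM in HKO cells with vehicle, 43789 to 45253 TPM in FLOX cells with palmitic acid and 55733 to 56382 TPM in FLOX cells with vehicle. Markers of stellate cells summed to 2.02 TPM at most, those of lymphocytes and neutrophils to 0.46 TPM at most, and those of endothelial cells to 2.85 to 5.69 TPM. In bulk RNA, fewer cells of a type and less RNA per cell cannot be told apart. Replicate 1 of FLOX with palmitic acid and replicate 1 of FLOX with vehicle lay at opposite ends of the third principal component, which held 7.53% of the variance, with scores of 19.0 and -16.1, and the results that change without them are named below.

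The sequences just upstream of 3 of the enzymes are shown because their transcripts carried the main contrasts: Haao had the largest difference with palmitic acid, and Hpd and Tat differed between genotypes in opposite directions. Each line gives the 250 bases before the annotated start of the gene, 5′ to 3′ on the gene's strand, from RefSeq on GRCm38.p6. The upstream stretch of Haao is chr17:83846791-83847040 on the minus strand, that of Hpd chr5:123182724-123182973 on the minus strand and that of Tat chr8:109990186-109990435 on the plus strand. Capitals mark exact matches to the motifs named after the sequences.
Haao: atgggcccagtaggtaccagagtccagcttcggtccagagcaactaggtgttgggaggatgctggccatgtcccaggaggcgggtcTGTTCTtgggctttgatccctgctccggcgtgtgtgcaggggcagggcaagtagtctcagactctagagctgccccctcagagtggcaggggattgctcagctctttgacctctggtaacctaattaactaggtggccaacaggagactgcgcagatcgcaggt
Hpd: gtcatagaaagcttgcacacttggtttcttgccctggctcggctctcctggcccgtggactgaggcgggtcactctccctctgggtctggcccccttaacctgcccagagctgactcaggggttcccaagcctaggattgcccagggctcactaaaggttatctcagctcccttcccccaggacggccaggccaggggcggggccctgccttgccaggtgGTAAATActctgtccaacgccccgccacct
Tat: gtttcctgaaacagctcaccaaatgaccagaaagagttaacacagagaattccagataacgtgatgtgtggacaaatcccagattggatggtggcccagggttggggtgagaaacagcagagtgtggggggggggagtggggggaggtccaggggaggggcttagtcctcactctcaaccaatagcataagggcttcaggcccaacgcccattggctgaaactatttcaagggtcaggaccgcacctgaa
Windows of 300 bases, which add the first 50 bases of the gene, were searched on both strands for 6 short motifs in the 10 windows that RefSeq gives for the 9 genes, Gstz1 having 2. The glucocorticoid receptor core TGTTCT was found in the windows of Haao, at position -164 from the start, and of Kmo, and 19.0% of all 32851 windows of this length hold it. The forkhead core TATTTAC was found in the Hpd window on the opposite strand at position -30, where it reads GTAAATA, and 3.04% of all windows hold it. No window of the 9 genes held TGTTTAC (forkhead, 3.65% of all windows), CAAAGTCCA (HNF4A, 0.475%), TTGCGCAA (C/EBP, 0.183%) or TGACGTCA (CREB, 1.79%). None of the matches overlapped another, and a match describes letters only, not a bound site.

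The levels of the 9 transcripts spanned a wide range. In FLOX cells with vehicle, Fah was highest at 98.1 ± 1.5 TPM (SD, n = 4) and Afmid lowest at 3.26 ± 0.17 TPM (SD, n = 4). Between them Hpd and Gstz1 came next and overlapped each other, followed by Haao, Kmo and Hgd, each above the next in every sample, and then by Tdo2 and Tat, which overlapped. Fah stayed highest and Afmid lowest by mean in all 4 groups. The order of the genes in between differed from group to group: Hpd stood below Gstz1 in all HKO samples with vehicle, whereas it stood above Gstz1 in all FLOX samples with palmitic acid and overlapped it in the remaining groups. Tat overlapped Kmo in HKO cells with palmitic acid, and it overlapped Tdo2 in every group except HKO with vehicle.

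**Figure D1:**
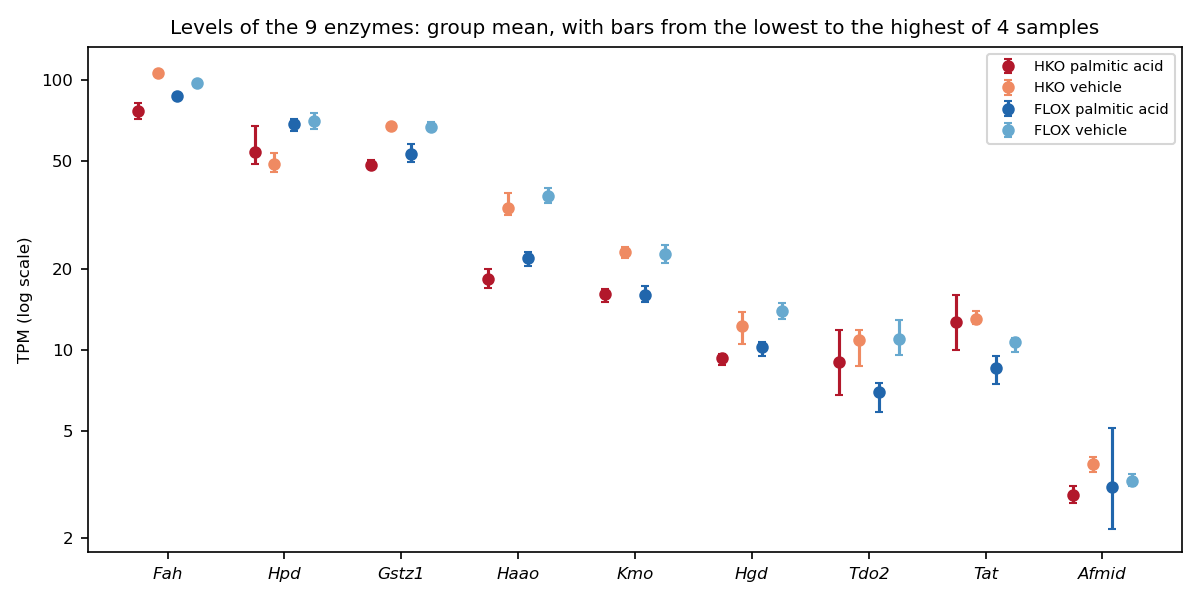
Group means of the 9 enzymes in TPM on a log axis, with bars from the lowest to the highest of 4 samples, for HKO with palmitic acid, HKO with vehicle, FLOX with palmitic acid and FLOX with vehicle. Fah heads the order and Afmid ends it in every group, and the means of Hpd lie lower in the HKO groups than in the FLOX groups.

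Palmitic acid was followed by lower transcript levels along both routes. In HKO cells 5 of the 9 fell (Hgd, Gstz1, Fah, Kmo and Haao), none rose and 4 did not pass the test, with 13.1% of all tested genes called lower and 29.4% called higher. In FLOX cells 7 of the 9 fell (the same 5, with Tat and Tdo2), none rose and 2 did not pass the test, with 11.5% of all tested genes called lower and 23.0% called higher. The median log2 difference of the 9 was -0.36 in HKO cells and -0.32 in FLOX cells, against medians over all tested genes of 0.11 in HKO cells and 0.096 in FLOX cells. These 2 responses come from separate samples of the 2 genotypes. Scaling by median ratios took the medians of all genes to 0.0056 in HKO cells and 0.0081 in FLOX cells, and the share of higher calls to 47.0% against 69.3% in HKO cells and to 45.4% against 66.7% in FLOX cells, with 50.4% (FLOX) and 51.9% (HKO) after quantile normalization. All calls of the 9 held in their direction under both scalings. Relative to the median of all genes, the median of the 9 stood at -0.47 in HKO cells and -0.42 in FLOX cells. Hepatocyte markers moved the same way, with 8 of 8 called lower in HKO cells and 6 of 8 in FLOX cells, and their part in the result was not tested.

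The first step of the tyrosine route was called lower in FLOX cells and did not pass the test in HKO cells. Tat, the aminotransferase that makes hydroxyphenylpyruvate from tyrosine, read 12.00, 9.95, 12.69 and 16.02 TPM in HKO cells with palmitic acid, against 13.92, 12.65, 13.03 and 12.48 TPM in HKO cells with vehicle. The HKO groups overlapped, and the log2 difference of -0.054 had a 95% interval of -0.28 to 0.17 (limma adjusted p = 0.714). In FLOX cells Tat read 7.43, 9.45, 8.24 and 8.95 TPM with palmitic acid, against 11.1, 9.79, 11.1 and 10.8 TPM with vehicle. All 4 FLOX samples with palmitic acid lay below the 4 with vehicle, a log2 difference of -0.30 ± 0.11 (SE; limma adjusted p = 0.0390). That call was lost without any one of replicates 1, 3 and 4 of either FLOX group (limma adjusted p = 0.0519 to 0.0926) and without both replicates 1 (0.145), with no filter on low values (0.0861) and with a replicate block (0.0809).

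Hpd, the dioxygenase that rearranges hydroxyphenylpyruvate to homogentisate, kept overlapping levels with and without palmitic acid. It read 49.8, 49.1, 49.2 and 68.0 TPM in HKO cells with palmitic acid, against 48.7, 47.2, 45.8 and 53.8 TPM in HKO cells with vehicle. In FLOX cells it read 68.0, 69.8, 65.1 and 72.1 TPM with palmitic acid, against 69.9, 66.1, 71.6 and 75.9 TPM with vehicle. The 95% interval of the log2 difference ran from -0.056 to 0.32 in HKO cells and from -0.23 to 0.14 in FLOX cells (limma adjusted p = 0.247 in HKO and 0.741 in FLOX). Replicate 4 of the HKO samples with palmitic acid was the highest of its group for both Hpd and Tat.

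The 3 steps that follow Hpd fell in both genotypes. Hgd, which opens the ring of homogentisate and whose loss causes alkaptonuria, read 9.35, 8.78, 9.37 and 9.67 TPM in HKO cells with palmitic acid, against 13.75, 10.47, 11.87 and 13.04 TPM in HKO cells with vehicle. Hgd in FLOX cells read 9.45, 10.6, 10.7 and 10.3 TPM with palmitic acid, against 12.99, 13.88, 13.77 and 14.95 TPM with vehicle. Neither genotype's groups overlapped, and the log2 differences were -0.36 in HKO cells and -0.40 in FLOX cells (limma adjusted p = 0.00104 in HKO and 0.000603 in FLOX). Gstz1, the isomerase of maleylacetoacetate, stood at 71.8% of its vehicle level in HKO cells, at 48.6 ± 1.5 TPM with palmitic acid and 67.8 ± 0.89 TPM with vehicle (SD, n = 4 each; limma adjusted p = 6.23e-07). It stood at 79.8% of its vehicle level in FLOX cells, at 53.5 ± 3.6 TPM with palmitic acid and 67.01 ± 2.2 TPM with vehicle (SD, n = 4 each; limma adjusted p = 4.66e-05).

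Fah, the hydrolase that splits fumarylacetoacetate and whose loss causes hereditary tyrosinaemia, read 82.1, 75.7, 72.0 and 78.0 TPM in HKO cells with palmitic acid, against 104, 106, 105 and 109 TPM in HKO cells with vehicle. In FLOX cells it read 89.9, 85.6, 87.0 and 88.3 TPM with palmitic acid, against 98.5, 96.1, 99.8 and 97.9 TPM with vehicle. No sample with palmitic acid reached the lowest vehicle sample of its genotype. Its level fell by 27.5% in HKO cells (log2 difference -0.46, limma adjusted p = 1.29e-07) and fell by 10.6% in FLOX cells (log2 difference -0.16, limma adjusted p = 0.00391).

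On the tryptophan route, the entry enzyme Tdo2 was spread widely within groups. Tdo2, the dioxygenase that opens the ring of tryptophan, read 11.8, 6.81, 7.24 and 10.1 TPM in HKO cells with palmitic acid, against 8.69, 11.7, 11.4 and 11.9 TPM in HKO cells with vehicle. The HKO groups overlapped, with a log2 difference of -0.27 and a 95% interval of -0.59 to 0.042 (limma adjusted p = 0.153). Without HKO palmitic acid replicate 1, which was the highest of its group, the difference was -0.40 and passed the test (limma adjusted p = 0.0320), as it did after quantile normalization (0.0497). Tdo2 in FLOX cells read 7.16, 5.87, 7.28 and 7.52 TPM with palmitic acid, against 11.2, 12.9, 10.2 and 9.52 TPM with vehicle. These groups did not overlap, and Tdo2 fell by 36.5% with palmitic acid (log2 difference -0.58 ± 0.15 SE; limma adjusted p = 0.00644).

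Afmid, the formamidase that turns formylkynurenine into kynurenine, had the lowest level of the 9 and one sample that set its result. It read 3.11, 3.01, 2.72 and 2.69 TPM in HKO cells with palmitic acid, against 3.77, 3.71, 4.01 and 3.51 TPM in HKO cells with vehicle, without overlap. In FLOX cells it read 5.11, 2.59, 2.15 and 2.54 TPM with palmitic acid, against 3.45, 3.11, 3.13 and 3.35 TPM with vehicle. FLOX palmitic acid replicate 1 was thus the highest of all 16 samples, while the other 3 of its group were below every vehicle sample. The log2 differences of -0.29 in HKO cells and -0.11 in FLOX cells did not pass the test (limma adjusted p = 0.132 in HKO and 0.615 in FLOX). Without that sample, they were called in HKO cells (limma adjusted p = 0.00504) and in FLOX cells (log2 difference -0.32, limma adjusted p = 0.00608). The HKO value involves the sample only through the spread that all groups share in the fit, and it was also called with only the HKO samples in the fit (limma adjusted p = 0.0149) and with sample quality weights (0.0300).

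Kmo, the monooxygenase that hydroxylates kynurenine at the outer mitochondrial membrane, fell by nearly the same share in both genotypes. It read 16.6, 15.9, 15.1 and 16.8 TPM in HKO cells with palmitic acid, against 23.4, 24.0, 22.7 and 21.9 TPM in HKO cells with vehicle. FLOX cells had 15.0, 16.3, 17.3 and 15.1 TPM with palmitic acid, against 23.9, 21.0, 21.1 and 24.4 TPM with vehicle. The groups did not overlap, and the level fell by 30.1% in HKO cells and fell by 29.5% in FLOX cells (log2 differences of -0.49 in HKO and -0.48 in FLOX; limma adjusted p = 1.38e-05 in HKO and 2.52e-05 in FLOX).

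Haao, the dioxygenase whose product leads to quinolinate and on to NAD, had the largest difference of the 9 in both genotypes. It read 18.7, 19.9, 17.6 and 16.9 TPM in HKO cells with palmitic acid, against 31.5, 32.1, 32.3 and 38.1 TPM in HKO cells with vehicle. FLOX cells had 21.3, 23.1, 20.4 and 22.6 TPM with palmitic acid, against 39.4, 34.9, 40.0 and 35.1 TPM with vehicle. The groups were far apart in each genotype, and Haao fell by 45.4% in HKO cells (log2 difference -0.84, limma adjusted p = 1.88e-07) and fell by 41.5% in FLOX cells (log2 difference -0.75, limma adjusted p = 9.40e-07).

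**Figure D2:**
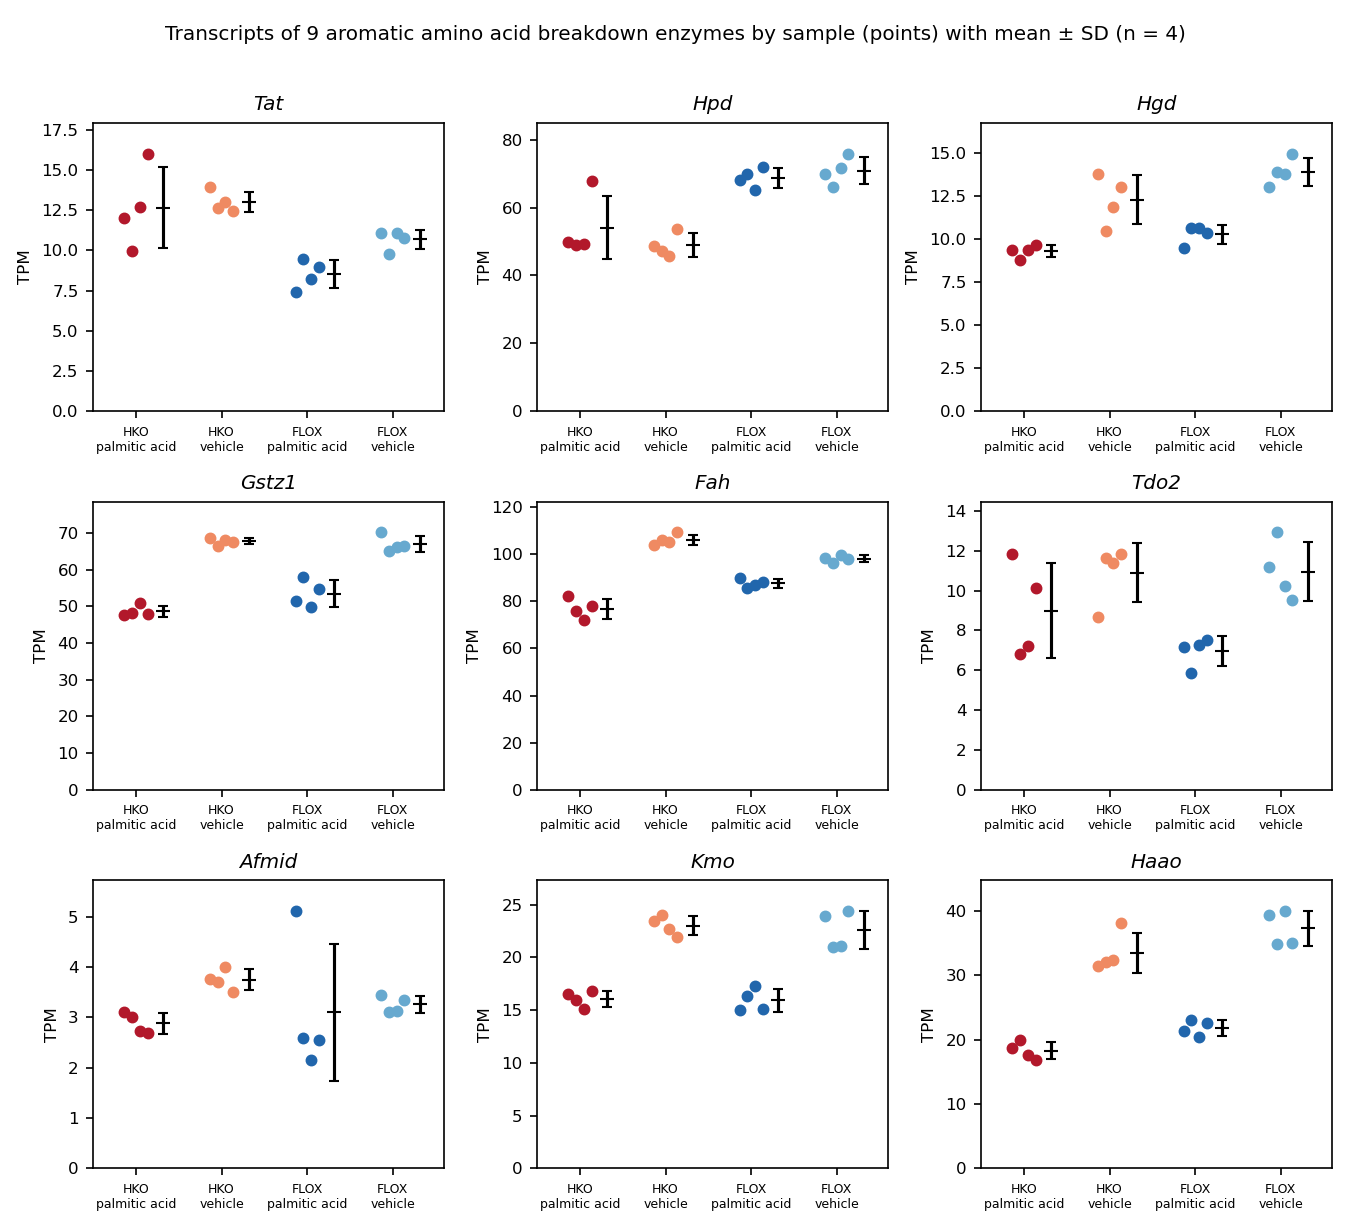
TPM of each of the 9 enzymes in each sample (points) with mean ± SD (n = 4), from left to right in HKO with palmitic acid, HKO with vehicle, FLOX with palmitic acid and FLOX with vehicle. The palmitic acid points of Hgd, Gstz1, Fah, Kmo and Haao lie below the vehicle points of the same genotype, while one FLOX palmitic acid sample of Afmid at 5.11 TPM and one HKO palmitic acid sample of Hpd at 68.0 TPM stand apart.

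Summed over each route, the 5 tyrosine transcripts came to 202 ± 13 TPM in HKO cells with palmitic acid and 248 ± 6.1 TPM in HKO cells with vehicle, and to 229 ± 6.4 TPM in FLOX cells with palmitic acid and 261 ± 6.5 TPM in FLOX cells with vehicle (SD, n = 4 each). The 4 tryptophan transcripts came to 46.3 ± 3.1 TPM in HKO cells with palmitic acid and 71.1 ± 3.3 TPM in HKO cells with vehicle, and to 47.8 ± 0.61 TPM in FLOX cells with palmitic acid and 74.2 ± 2.8 TPM in FLOX cells with vehicle (SD, n = 4 each). Fah, Hpd and Gstz1 make up most of the first sum, and Haao and Kmo most of the second. The sums of a genotype did not overlap between palmitic acid and vehicle on either route.

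Fewer of the 9 transcripts were called between genotypes. With vehicle, 1 of the 9 was called, Hpd, which was lower in HKO cells, while 7.56% of all tested genes were called lower and 4.11% higher, so that 1 of 9 is close to the share among all genes. With palmitic acid, Hpd, Fah and Haao were lower and Tat was higher in HKO cells, while 5.50% of all tested genes were called lower and 4.24% higher. The median log2 difference of the 9 was 0.016 with vehicle and -0.13 with palmitic acid, against -0.023 and -0.0077 over all tested genes. Among all calls 35.2% were higher with vehicle (56.6% after median-ratio scaling and 51.9% after quantile normalization) and 43.5% with palmitic acid (55.0% after median-ratio scaling and 51.3% after quantile normalization). The 2 genotype comparisons use different samples, but each shares its samples with the palmitic acid comparisons.

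Hpd in HKO cells with vehicle stood at 68.9% of its FLOX level, and its 45.8 to 53.8 TPM there lay below the 66.1 to 75.9 TPM of FLOX cells (log2 difference -0.53 ± 0.088 SE; limma adjusted p = 0.000840). That call held in every alternative setting, including each library left out. With palmitic acid it stood at 78.6% of its FLOX level (log2 difference -0.36, limma adjusted p = 0.0166), but HKO replicate 4, at 68.0 TPM, lay within the FLOX range. The call with palmitic acid was lost without HKO replicate 1, 2 or 3 or FLOX replicate 4 (limma adjusted p = 0.0507 to 0.0571). Set against Fah, the last enzyme of the route, Hpd stood at 0.702 ± 0.12 of its level in HKO cells with palmitic acid and 0.460 ± 0.025 in HKO cells with vehicle, and at 0.784 ± 0.037 in FLOX cells with palmitic acid and 0.723 ± 0.037 in FLOX cells with vehicle (SD, n = 4 each). This ratio of levels was lowest in HKO cells with vehicle, whose highest sample, 0.492, was below the lowest of every other group.

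Tat differed in the opposite direction. With palmitic acid it was 48.7% higher in HKO cells, where the lowest of the 4 samples, 9.95 TPM, was above the highest FLOX sample, 9.45 TPM (log2 difference 0.51 ± 0.11 SE; limma adjusted p = 0.00555). With vehicle the HKO samples, at 12.5 to 13.9 TPM, also lay above the FLOX samples, at 9.79 to 11.1 TPM, but the difference did not pass the test (log2 difference 0.26, limma adjusted p = 0.129). It passed with only the 2 groups compared in the fit (limma adjusted p = 0.0282), with sample quality weights (0.0390) and without HKO palmitic acid replicate 4 (0.0499), which enters this comparison only through the shared spread.

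Fah in HKO cells with palmitic acid stood at 87.8% of its FLOX level, and no HKO sample reached the FLOX range (log2 difference -0.19 ± 0.038 SE; limma adjusted p = 0.00436). With vehicle its HKO samples, at 104 to 109 TPM, lay above the FLOX samples, at 96.1 to 99.8 TPM, with a log2 difference of 0.11 that did not pass the test (limma adjusted p = 0.0665). Without HKO palmitic acid replicate 1 or 3 it passed (limma adjusted p = 0.0423 and 0.0424), as it did after quantile normalization (0.00488). It also passed with only the 2 groups compared in the fit (limma adjusted p = 0.0489) and with sample quality weights (0.0360). Haao in HKO cells with palmitic acid stood at 83.8% of its FLOX level (log2 difference -0.24, limma adjusted p = 0.0405), without overlap. The Haao call was lost without any one of 7 libraries (HKO palmitic acid replicates 1, 3 and 4, HKO vehicle replicate 3, and FLOX palmitic acid replicates 1, 2 and 4; limma adjusted p = 0.0517 to 0.110) and in several other settings, among them median-ratio scaling (0.0538). With only the 2 groups compared in the fit, none of the 4 calls with palmitic acid was kept (limma adjusted p = 0.0555 for Tat, 0.0764 for Hpd, 0.0550 for Fah and 0.0727 for Haao).

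For the remaining enzymes the genotype difference was small or poorly bounded. Kmo had 95% intervals of -0.11 to 0.16 with vehicle and -0.12 to 0.15 with palmitic acid on the log2 scale (limma adjusted p = 0.858 and 0.936). Tdo2 had wider ones with palmitic acid, from -0.011 to 0.62 (limma adjusted p = 0.245). Gstz1 was not called with palmitic acid (log2 difference -0.13, limma adjusted p = 0.0760). It was called without FLOX palmitic acid replicate 3 (limma adjusted p = 0.0309) and with sample quality weights (0.0460). Hgd and Afmid passed in neither comparison, although the HKO samples of Afmid with vehicle lay above all FLOX samples with vehicle. With sample quality weights Hgd was called lower in HKO cells with vehicle (log2 difference -0.20, limma adjusted p = 0.0462).

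**Figure D3:**
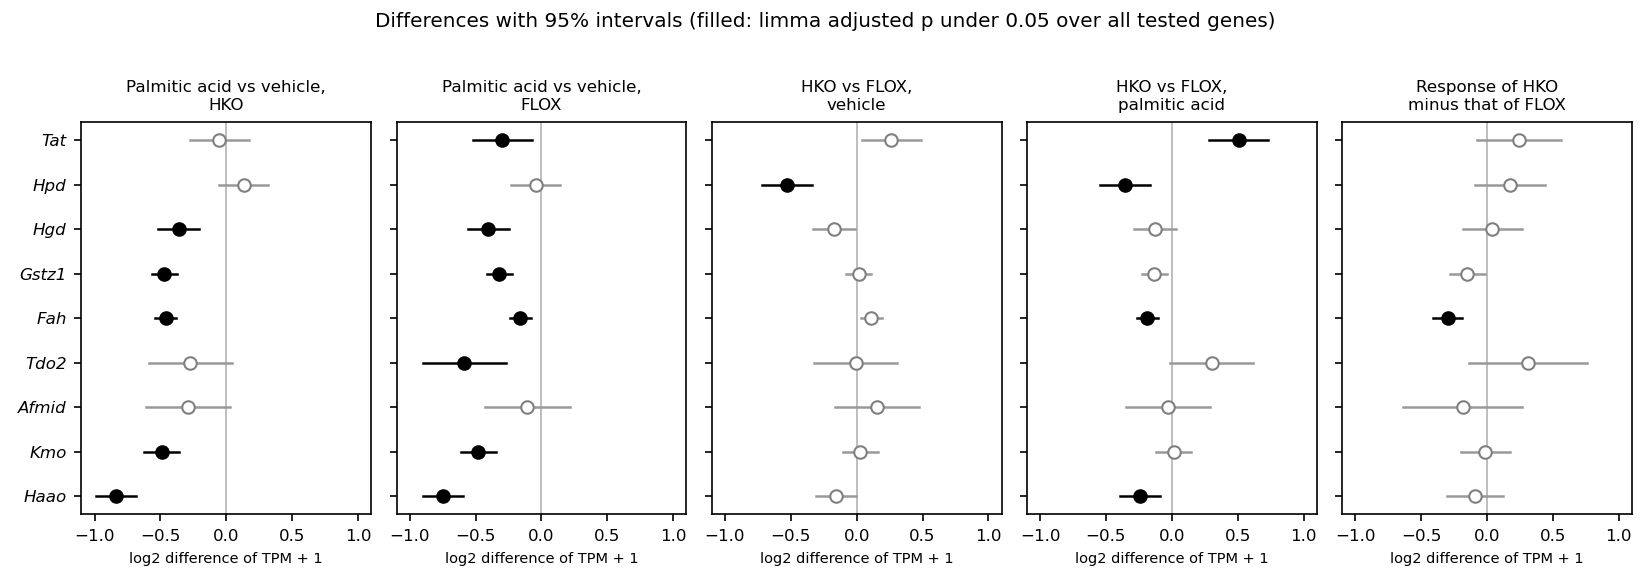
Log2 differences of TPM + 1 for the 9 enzymes with 95% intervals, in HKO and in FLOX with palmitic acid against vehicle, for HKO against FLOX with vehicle and with palmitic acid, and for the HKO response less the FLOX response; filled points passed an adjusted p of 0.05 in limma. Most palmitic acid differences lie left of 0, Hpd is left of 0 in both genotype panels, Tat is right of 0, and Fah is the filled point in the last panel.

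Whether the response to palmitic acid differed between genotypes was tested as the HKO response less the FLOX response. Among the 9, Fah alone was called, while 0.0422% of all tested genes were called lower and 0.152% higher. Its log2 difference of responses was -0.30 ± 0.053 (SE), with a 95% interval of -0.41 to -0.19 (limma adjusted p = 0.0344). HKO cells had 77.0 ± 4.2 TPM of Fah with palmitic acid and 106 ± 2.3 TPM with vehicle, while FLOX cells had 87.7 ± 1.8 TPM with palmitic acid and 98.1 ± 1.5 TPM with vehicle (SD, n = 4 each). The size of the difference stayed between -0.33 and -0.27 when any one library was left out, but the call was lost without any one of 13 of the 16 libraries (limma adjusted p = 0.0524 to 0.0906) and held only without HKO palmitic acid replicate 1 or 4 or FLOX palmitic acid replicate 2. It was also lost with the replicate block (limma adjusted p = 0.316), after median-ratio scaling (0.157), with no mean-variance trend (0.121) and without both FLOX replicates 1 (0.0637). For Tat, called lower with palmitic acid in FLOX cells and not in HKO cells, the difference of responses was 0.24 and did not pass the test (limma adjusted p = 0.762). The same holds for Tdo2, with a difference of responses of 0.31 (limma adjusted p = 0.795).

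The summed markers of macrophages and cholangiocytes moved with genotype and treatment beside these results, while those of endothelial and stellate cells overlapped between groups. Of 8 macrophage markers 7 had a mean under 1 TPM over the 16 samples, Timd4 was listed at 0 in all 16 samples, and Cd68 made up nearly all of a sum of 80.9 to 107 TPM in HKO cells with palmitic acid, 60.5 to 70.0 TPM in HKO cells with vehicle, 55.7 to 68.3 TPM in FLOX cells with palmitic acid and 48.6 to 55.1 TPM in FLOX cells with vehicle. The 6 cholangiocyte markers, of which Cftr was listed at 0 throughout and Spp1 took the largest share, summed to 338 to 386 TPM in HKO cells with palmitic acid, 298 to 324 TPM in HKO cells with vehicle, 197 to 242 TPM in FLOX cells with palmitic acid and 180 to 191 TPM in FLOX cells with vehicle. The single markers went both ways: with palmitic acid 2 of the 4 tested were called higher and 2 lower in each genotype. Among all tested genes 29.4% were higher and 13.1% lower in HKO cells, and 23.0% higher and 11.5% lower in FLOX cells. Between genotypes 2 of the 4 were higher and 1 lower in HKO cells with vehicle, and 1 was higher and 0 lower with palmitic acid. Of the 8 hepatocyte markers 4 were higher and 1 lower in HKO cells under each treatment. Between genotypes 4.11% of all tested genes were higher and 7.56% lower with vehicle, and 4.24% higher and 5.50% lower with palmitic acid. The part of these cell type markers in the genotype differences of Hpd, Tat, Fah and Haao was not tested.

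Some of the 9 genes overlap another gene in the GENCODE M21 annotation, and the strand setting used for counting is not given in the sources used here. Kmo overlaps Fh1, which stood at 59.1 to 73.8 TPM, Hpd overlaps Psmd9 at 15.5 to 20.8 TPM, Gstz1 overlaps Pomt2 at 5.39 to 8.06 TPM and Afmid overlaps Tk1 at 1.39 to 3.47 TPM, each on the opposite strand. Also on the opposite strand, Hgd overlaps the antisense gene Gm46559 at 0 to 2.61 TPM, and Gstz1 overlaps the antisense gene Gm6566 at 0.06 to 0.65 TPM. On the same strand, Afmid overlaps the protein-coding Gm20708 at 0 to 0.46 TPM, and Hpd overlaps the lincRNA Gm26745, for which the deposited values hold no entry. The library kit keeps strand, which does not separate partners on the same strand, and whether reads of any of these partners entered the values of the enzymes cannot be told apart here.

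Genes around the 2 routes were counted by lists. With palmitic acid 13.1% of all tested genes were lower and 29.4% higher in HKO cells, against 11.5% lower and 23.0% higher in FLOX cells. Synthesis and recycling of tetrahydrobiopterin, a cofactor of aromatic amino acid metabolism, had 5 of 7 genes lower with palmitic acid in HKO cells and 4 of 7 in FLOX cells, and none higher. Qdpr, which regenerates the cofactor, fell in both genotypes, with log2 differences of -0.46 in HKO cells and -0.37 in FLOX cells (limma adjusted p = 2.84e-05 in HKO and 0.000359 in FLOX).

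The rest of the kynurenine route and NAD synthesis had, with palmitic acid, 7 of 15 tested genes lower and 1 higher in HKO cells, against 9 lower and 1 higher in FLOX cells, with Ido1 under the limit for testing. The shares of all tested genes were 13.1% lower and 29.4% higher in HKO cells, and 11.5% lower and 23.0% higher in FLOX cells. Kynu, the kynureninase that acts between Kmo and Haao, averaged 12.8 ± 1.4 TPM with palmitic acid and 22.6 ± 1.1 TPM with vehicle in HKO cells, and 12.2 ± 1.9 TPM with palmitic acid and 21.9 ± 1.0 TPM with vehicle in FLOX cells (SD, n = 4 each; limma adjusted p = 8.75e-06 in HKO and 9.09e-06 in FLOX). Acmsd, which diverts the product of Haao away from NAD, had log2 differences of -0.97 in HKO cells and -0.86 in FLOX cells (limma adjusted p = 5.85e-09 in HKO and 2.92e-08 in FLOX). It was also higher in HKO than in FLOX cells with vehicle, at 16.9 ± 0.24 TPM in HKO and 12.8 ± 0.57 TPM in FLOX (SD, n = 4 each; limma adjusted p = 0.000587). Acmsd was higher in HKO cells with palmitic acid too, at means of 8.16 TPM in HKO and 6.61 TPM in FLOX (limma adjusted p = 0.00908). Qprt, which takes quinolinate into NAD synthesis, was higher in HKO than in FLOX cells with palmitic acid, at 36.6 ± 3.0 TPM in HKO and 29.0 ± 1.0 TPM in FLOX (SD, n = 4 each; limma adjusted p = 0.000734). Qprt was higher in HKO cells with vehicle too, at means of 59.2 TPM in HKO and 49.7 TPM in FLOX (limma adjusted p = 0.00542). Ido2, another tryptophan-cleaving dioxygenase, was lower in HKO than in FLOX cells under both treatments, with log2 differences of -0.55 with palmitic acid and -0.51 with vehicle (limma adjusted p = 0.00837 and 0.0119).

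Uptake and side routes of the aromatic amino acids held further falls, where 13.1% of all tested genes were lower in HKO cells and 11.5% in FLOX cells. Of 5 tested transporter genes 2 were lower with palmitic acid in each genotype: Slc43a2 had 1.64 ± 0.45 TPM with palmitic acid and 4.20 ± 0.37 TPM with vehicle in HKO cells, and 1.16 ± 0.39 TPM with palmitic acid and 3.51 ± 0.20 TPM with vehicle in FLOX cells (SD, n = 4 each; limma adjusted p = 2.26e-05 in HKO and 1.39e-05 in FLOX), and Slc3a2 fell by 0.30 in HKO cells and 0.46 in FLOX cells on the log2 scale. Of 5 tested genes of aromatic amine routes 3 were lower in each genotype, among them Ddc, the decarboxylase that forms amines from aromatic amino acids (log2 differences of -0.95 in HKO and -0.80 in FLOX; limma adjusted p = 3.46e-06 in HKO and 2.94e-05 in FLOX). Inmt, a methyltransferase of tryptamine, differed by genotype, at 8.56 ± 0.97 TPM in HKO cells and 27.6 ± 2.1 TPM in FLOX cells with vehicle (SD, n = 4 each; limma adjusted p = 2.19e-08).

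Lower levels were not confined to aromatic amino acids. With palmitic acid, of 29 genes that break down other amino acids, 19 were lower and 2 higher in HKO cells, against 17 lower and 2 higher in FLOX cells, with medians of -0.43 in HKO cells and -0.32 in FLOX cells. All tested genes had 13.1% lower and 29.4% higher in HKO cells, and 11.5% lower and 23.0% higher in FLOX cells. Aass of lysine breakdown had log2 differences of -1.05 in HKO cells and -1.04 in FLOX cells, and Bcat2, a branched-chain aminotransferase, of -1.19 in HKO cells and -0.92 in FLOX cells. By genotype with vehicle this list had 8 higher and 2 lower in HKO cells, where 4.11% of all tested genes were higher and 7.56% lower, and the 8 ran from 2 to 9 under the alternatives. Among them was Bhmt, a betaine methyltransferase, at 49.4 ± 1.5 TPM in HKO cells and 28.2 ± 1.5 TPM in FLOX cells (SD, n = 4 each; limma adjusted p = 1.16e-07). By genotype with palmitic acid the list did not lean one way, with 6 higher and 5 lower in HKO cells and a median of -0.0072. Of all tested genes 4.24% were higher and 5.50% lower in that comparison.

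**Figure D4:**
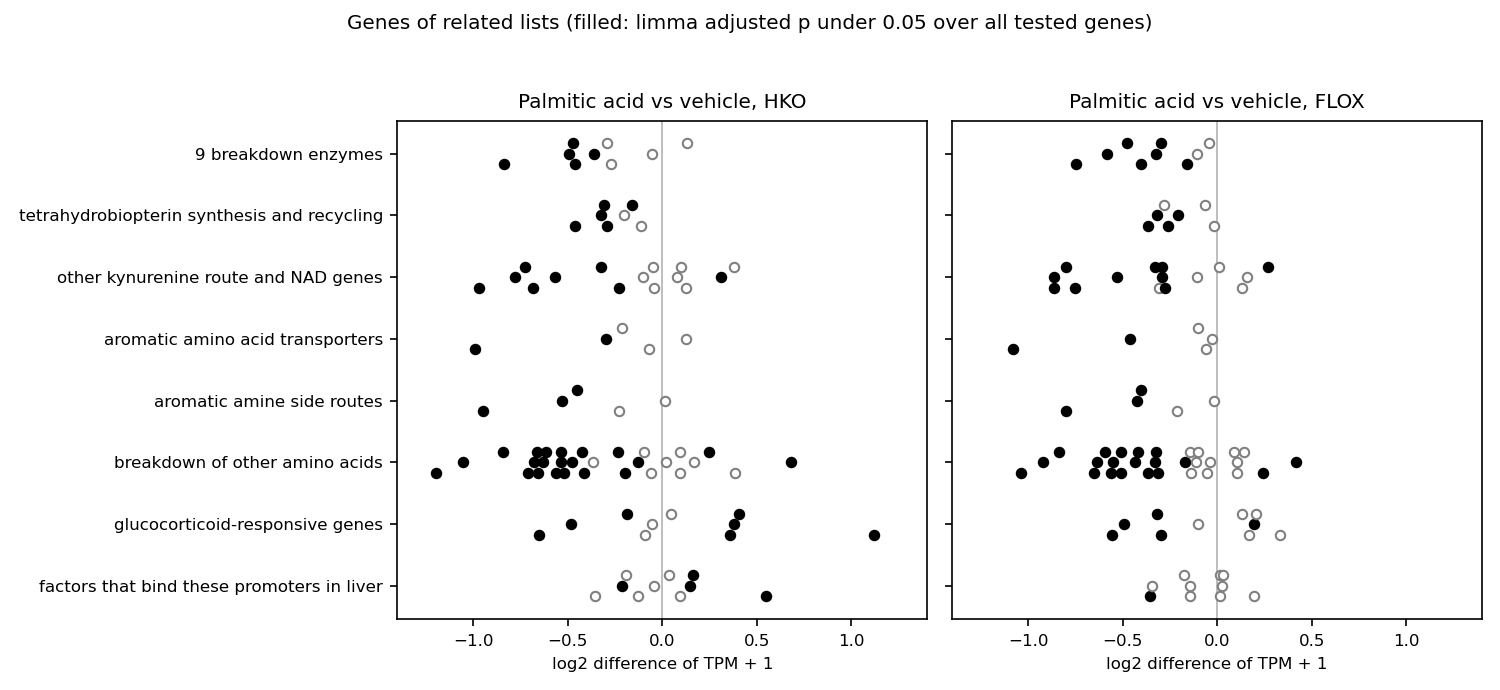
Log2 differences of TPM + 1 with palmitic acid against vehicle in HKO (left) and FLOX (right) for each gene of the 9 enzymes and of 7 related lists; filled points passed an adjusted p of 0.05 in limma. Amino acid breakdown lists lie mostly left of 0, and the glucocorticoid-responsive genes and the promoter-binding factors lie on both sides.

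Glucocorticoid-responsive genes, a list of 10 that includes Tat, did not move one way. With palmitic acid 4 were higher and 3 lower in HKO cells, and 1 was higher and 4 lower in FLOX cells, with medians of -0.0043 in HKO cells and 0.015 in FLOX cells. Among all tested genes 29.4% were higher and 13.1% lower in HKO cells, and 23.0% were higher and 11.5% lower in FLOX cells. Fkbp5 and Tsc22d3 of the list fell in both genotypes, with log2 differences for Fkbp5 of -0.65 in HKO cells and -0.49 in FLOX cells (limma adjusted p = 1.98e-06 in HKO and 5.09e-05 in FLOX). Pck1, a gluconeogenic enzyme of the same list, was higher in HKO cells, at 3.66 ± 2.2 TPM with palmitic acid and 0.995 ± 0.15 TPM with vehicle (SD, n = 4 each; limma adjusted p = 0.000785). Of 10 genes for factors that bind promoters of this kind in liver, 3 were higher and 1 lower with palmitic acid in HKO cells, and 0 were higher and 1 lower in FLOX cells; in HKO cells this is near the shares of 29.4% higher and 13.1% lower among all tested genes, and under the alternatives it ran from 1 to 3 higher and from 0 to 4 lower. Foxa1, a forkhead factor, was higher in HKO cells with palmitic acid than with vehicle (log2 difference 0.55, limma adjusted p = 0.00083). No gene of any of the 7 lists was called for a difference of response between genotypes. Such calls were rare among all tested genes too, at 0.152% higher and 0.0422% lower.

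The transcripts whose pattern over the 16 samples was most like that of each entry enzyme were found by Pearson's r of log2(TPM + 1) among all tested genes, as a description in which samples share their group. For Tat they were Egln3 (r = 0.901), Ffar4 (0.881) and Rasgef1b (0.880). Ffar4 lay near the limit of 1 TPM for testing. Its means with palmitic acid were 1.58 TPM in HKO cells and 0.42 TPM in FLOX cells. With vehicle they were 1.685 TPM in HKO cells and 0.99 TPM in FLOX cells. Egln3, an oxygen-sensing prolyl hydroxylase, averaged 7.48 TPM in HKO cells with palmitic acid, 9.83 TPM in HKO cells with vehicle, 3.25 TPM in FLOX cells with palmitic acid and 5.08 TPM in FLOX cells with vehicle. For Tdo2 they were Plpp6 (r = 0.852), Ciart (0.847) and Cpn1 (0.839). Ciart, a repressor in the circadian clock, averaged 4.32 TPM in HKO cells with palmitic acid, 4.84 TPM in HKO cells with vehicle, 3.13 TPM in FLOX cells with palmitic acid and 5.14 TPM in FLOX cells with vehicle.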

How the data were processed

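Stranded total RNA libraries of 16 samples of mouse primary hepatocytes were sequenced, per the labels' protocols. The deposited values are TPM, made by the authors and given for 55416 Ensembl genes; the submitters' processing notes name RSEM 1.3.3. Those notes list a human genome build, which cannot be that of mouse gene identifiers, so how the reads were assigned is in doubt. Neither the aligner, the annotation nor the mouse build is given in the sources used here. Since depth cannot be read from TPM, no counting interval was made. No column of per-sample values was left unused (0).

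Genes with at least 1 TPM in at least 4 samples (11858) were tested on log2(TPM + 1), a pseudocount that understates the change of low genes, with limma 3.58.1 (R 4.3.3). A single model held the 16 samples, with 1 mean for each of the 4 groups and the variance allowed to follow the mean. Tests were two-sided, and the Benjamini-Hochberg adjustment ran over every gene tested, with calls at 0.05. The procedure was tested on simulated data. The 9 enzymes, the 7 related lists, the cell type markers, tests and alternatives were chosen with earlier results of these data known. Named list genes are those, up to 3 per list and comparison, with the largest called differences and no overlap between groups; the text leaves some out. Some items of the lists and motifs are not reported here. Symbols matched 52083 of the 55416 identifiers. The alternatives changed the pseudocount (0.1), the filter (none, or 5 TPM), the scaling (median ratios or quantiles), the variance model (no trend, quality weights, or only the compared groups) and the samples (a replicate block, each library left out, or both FLOX replicates 1 left out).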

Additional observations from a re-analysis of the deposited data

Results flagged for a closer look

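In groups of 4, a sample was set apart where its gap to the nearest other sample exceeded 0.829 of the group's range, which chance gives in about 1 of 20 groups. Of 36 groups (9 enzymes in 4 groups) 5 held such a sample. Hpd read 67.98 TPM in HKO palmitic acid replicate 4, above the other 3 of its group (gap over range 0.961). Gstz1 read 50.81 TPM in HKO palmitic acid replicate 3, the highest of a narrow group (0.840). Tdo2 read 8.69 TPM in HKO vehicle replicate 1, below the other 3 (0.858). Afmid read 5.11 TPM in FLOX palmitic acid replicate 1, the highest of all samples (0.851). Haao read 38.10 TPM in HKO vehicle replicate 4, above the other 3 (0.873). The response of Fah to palmitic acid differed between genotypes by a test of the difference itself, with a log2 value of -0.299 for HKO minus FLOX (limma adjusted p = 0.0344). That call was lost without any one of 13 of the 16 libraries (limma adjusted p = 0.0524 to 0.0906), after median-ratio scaling (0.157), with no trend (0.121), with the replicate block (0.316) and without both FLOX replicates 1 (0.0637).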

How the results depend on the processing

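Of 1156 values of the 9 enzymes under 26 alternatives, 1064 kept their direction and their side of the threshold, 46 lost a call, 19 gained one and 27 changed sign, none of these with a call (0). The 5 falls with palmitic acid in both genotypes (Hgd, Gstz1, Fah, Kmo and Haao) held in every alternative, as did the fall of Tdo2 in FLOX cells. In HKO against FLOX with vehicle, 1 enzyme was called, against 2 after quantile normalization, 3 with only the groups compared, 4 with sample quality weights and 1 to 2 with a library left out. Over all genes that comparison had 1384 calls, against 1363 after quantile normalization, 1258 with only the groups compared and 2070 with sample quality weights. In HKO against FLOX with palmitic acid, 4 enzymes were called, against 0 with only the groups compared and 2 to 5 with a library left out. For the difference of responses, 1 was called, against 0 with median-ratio scaling, no trend, the replicate block and both FLOX replicates 1 left out, and 0 to 1 with a library left out; the causes were not tested. Over all genes that difference had 23 calls, against 9 after median-ratio scaling, 5 with no trend, 3 with the replicate block and 40 with quality weights. HKO against FLOX with palmitic acid had 1155, against 669 with only the groups compared. With the replicate block the counts with palmitic acid were 5 in HKO and 6 in FLOX cells, where the call of Tat was lost (limma adjusted p = 0.0809). Same-numbered samples did not deviate together: their correlations ran from -0.0265 to 0.0861 in HKO and from -0.150 to 0.0357 in FLOX cells, and 2 of 4 and 1 of 4 were closest to their own number. Signs changed as follows on the log2 scale. Tdo2 with vehicle was 0.020 with median-ratio scaling, 0.015 after quantile normalization, 0.0049 with quality weights and 0.0034 without both FLOX replicates 1. With palmitic acid, HKO against FLOX, Afmid was 0.12 with quality weights and 0.18 without both FLOX replicates 1, and Kmo -0.0014 and -0.010. Afmid's difference of responses was 0.0029 without both. With a library left out, the ranges were -0.32 to 0.0029 for Afmid in FLOX and -0.17 to 0.047 for Tat in HKO cells with palmitic acid. They were -0.067 to 0.088 for Tdo2 and -0.0054 to 0.063 for Kmo with vehicle, and -0.14 to 0.18 for Afmid and -0.010 to 0.053 for Kmo with palmitic acid between genotypes. For the differences of responses they were -0.027 to 0.093 for Hgd, -0.29 to 0.024 for Afmid and -0.048 to 0.026 for Kmo. Afmid was not tested at a filter of 5 TPM, and the fit with only the groups compared equals the reported one for the difference of responses. In the related lists, the 8 genes of other amino acid breakdown higher in HKO cells with vehicle became 2 to 9, the 1 higher and 4 lower glucocorticoid-responsive genes in FLOX cells 0 to 4 and 3 to 5, and the 3 higher and 1 lower promoter-binding factors in HKO cells 1 to 3 and 0 to 4. The depth of the libraries, and so what it limits, is unknown.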
